A study of Rattus norvegicus with 56 samples.

Results

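The comparison described here is that of 4 livers of male HFhf rats with 3 livers of male CON rats, all taken at zeitgeber time 16 (ZT16). With lights on for 12 h a day, this time lies in the dark, when rats are active and feed. These 7 libraries were chosen by their labels for sex, time and diet out of 56 in the series. All were adult Sprague-Dawley offspring at day 180 of age. CON offspring and their dams ate regular chow throughout. HFhf dams were put on a Western diet with 25% fructose in their drinking water at gestation day 11, and their offspring stayed on this high-fat, high-fructose diet. The fit and some comparisons below also use livers of females, of males at ZT4 and of the growth-restricted groups IUGR-HFhf and IUGR-RC. For the restriction, dams were allowed 50% of calories from gestation day 10. The labels name no litters, so it is not known which rats were littermates. The p-values measure the spread between livers within a group, estimated over all 56 libraries of the series and not from these 7 alone. The labels give the tissue as mouse liver although the organism is rat, and give polyA RNA as the molecule although the kit removes ribosomal RNA.

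Each library is a count of RNA reads per gene. The CON libraries held 5.55 M, 6.58 M and 9.05 M counted reads and the HFhf libraries 7.77 M, 6.38 M, 7.77 M and 6.76 M, so depth was alike in both groups. Albumin, the defining hepatocyte transcript, lay between 96759 and 155724 CPM (counts scaled to a common library size) in all 7. Eif2s3y, a gene of the Y chromosome, was read at 31.1 to 39.6 CPM in each of them.

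One HFhf library stood apart. The summed level of 39 skeletal muscle markers was 113 to 139 CPM in the 3 CON libraries, 119 to 135 CPM in 3 HFhf libraries and 992 CPM in HFhf replicate 3. The actin of skeletal muscle, Acta1, reached 125 CPM in that library and at most 0.439 CPM in the other 6, and Ckm, the muscle creatine kinase, was 64.3 CPM there and at most 0.115 CPM elsewhere. The fat cell hormone Adipoq was read only in that library, at 2.74 CPM. All 29 tested muscle markers were higher in HFhf, with a median log2 fold change of 4.29, and none passed the test. Without HFhf replicate 3 the median of the muscle markers tested was -0.12. HFhf replicate 3 also lay farthest from the others of its group, with a root mean square log2 distance over all genes of 0.494 against 0.380 to 0.392 in the other HFhf libraries. CON replicate 1 was the farthest of its group, at 0.431 against 0.354 and 0.360. The main counts are therefore given also without each library. The fit over 56 libraries holds another with muscle RNA, IUGR-RC replicate 2 of females at ZT4, where the muscle markers summed to 8206 CPM. Counts without the IUGR-RC libraries are given below.

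The liver keeps a clock of its own, in which BMAL1 (encoded by Arntl) and its partners CLOCK or NPAS2 switch on the genes of the PER and CRY proteins and of the nuclear receptors REV-ERB alpha and beta (Nr1d1 and Nr1d2). The REV-ERBs in turn repress Arntl and Npas2, so the genes of the REV-ERBs and those they repress peak at different times of day. SREBP-1c (from Srebf1) drives the genes of fatty acid and triglyceride synthesis under insulin and sugar, and SREBP-2 drives those of cholesterol synthesis when cell sterol is low. Perilipin 2 (Plin2) coats the lipid droplets in which hepatocytes store triglyceride.

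The promoter sequences of 3 clock genes are shown, chosen because each holds 1 of the 2 motifs on which this loop is known to act. The motifs CACGTG (the E-box, bound by BMAL1 with CLOCK or NPAS2) and AGGTCA (the core on which REV-ERB and ROR receptors bind) were searched on both strands in the 250 bases before each annotated start, with sequences and coordinates from RefSeq on build GRCr8. Capitals mark the motif, and each sequence is written 5′ to 3′ on the strand of the gene. Nr1d1 has 2 annotated starts, and the second, on the minus strand at chr10:84229455-84229704, holds CACGTG 191 bases before the start, while the first holds neither motif. Nr1d2, on the plus strand at chr15:9954784-9955033, holds AGGTCA at 187 bases before the start. Arntl, listed by RefSeq as Bmal1, on the plus strand at chr1:176766078-176766327, holds AGGTCA at 15 bases before the start.
Nr1d1, second start: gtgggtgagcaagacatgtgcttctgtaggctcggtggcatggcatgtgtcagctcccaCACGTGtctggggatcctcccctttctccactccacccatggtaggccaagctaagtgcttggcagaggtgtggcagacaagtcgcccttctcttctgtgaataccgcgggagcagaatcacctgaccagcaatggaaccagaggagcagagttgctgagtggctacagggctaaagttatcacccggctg
Nr1d2: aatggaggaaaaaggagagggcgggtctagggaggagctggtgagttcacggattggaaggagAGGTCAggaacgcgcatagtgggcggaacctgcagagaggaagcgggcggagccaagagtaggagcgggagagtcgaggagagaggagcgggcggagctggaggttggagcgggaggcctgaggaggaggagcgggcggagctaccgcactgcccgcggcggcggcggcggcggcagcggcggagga
Arntl (Bmal1): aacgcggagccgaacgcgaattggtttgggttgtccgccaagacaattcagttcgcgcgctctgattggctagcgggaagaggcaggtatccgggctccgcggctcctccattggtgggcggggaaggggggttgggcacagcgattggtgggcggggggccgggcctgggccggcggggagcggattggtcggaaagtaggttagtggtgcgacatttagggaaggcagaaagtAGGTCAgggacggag

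These letters are common in promoters. CACGTG was found before 8.37% of the 8949 tested genes that matched the promoter table, before 4 of 49 matched genes that rose and before 3 of 30 that fell. AGGTCA was found before 11.3% of the tested genes, 5 of the 49 and 4 of the 30. The sterol response element TCACNCCAC was found before 1.01% of the tested genes, 1 of the 49 and 1 of the 30. Npas2, Per3, Dbp and Nfil3 held none of the 3 motifs in this window, nor did Msmo1, Idi1, Hsd17b7, Srebf1, Gpam or Me1. Plin2 held CACGTG 67 bases before the first of its 2 starts.

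Of 11047 genes tested, 65 rose and 38 fell in HFhf livers at an adjusted p under 0.05 (edgeR quasi-likelihood test, Benjamini-Hochberg adjustment), which is 0.932% of the genes tested (0.588% higher and 0.344% lower), and 1285 had an unadjusted p under 0.05. In 62 of the 65 rises and 35 of the 38 falls the 4 HFhf livers did not overlap the 3 CON livers, against 6.21% of all genes tested that were separated upward and 5.83% downward. The test that called these genes used the same livers, so their separation follows largely from the choice and adds no support. The change was at least 2-fold (a log2 fold change of 1) for 38 rises and 24 falls. The fitted log2 fold changes of the called genes ran from 0.39 to 5.65 upward and from -0.46 to -3.27 downward, around a median of 0.01 over all genes, and the highest of these is that of Slc19a3, which had no read in CON. The numbers in the sample titles fall into a low and a high range, with CON 13 and HFhf 21 and 23 in the first and CON 39 and 40 and HFhf 45 and 48 in the second. All 103 called genes had the same sign in both ranges, which is a description only, since the same libraries chose these genes.

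**Figure D1:**
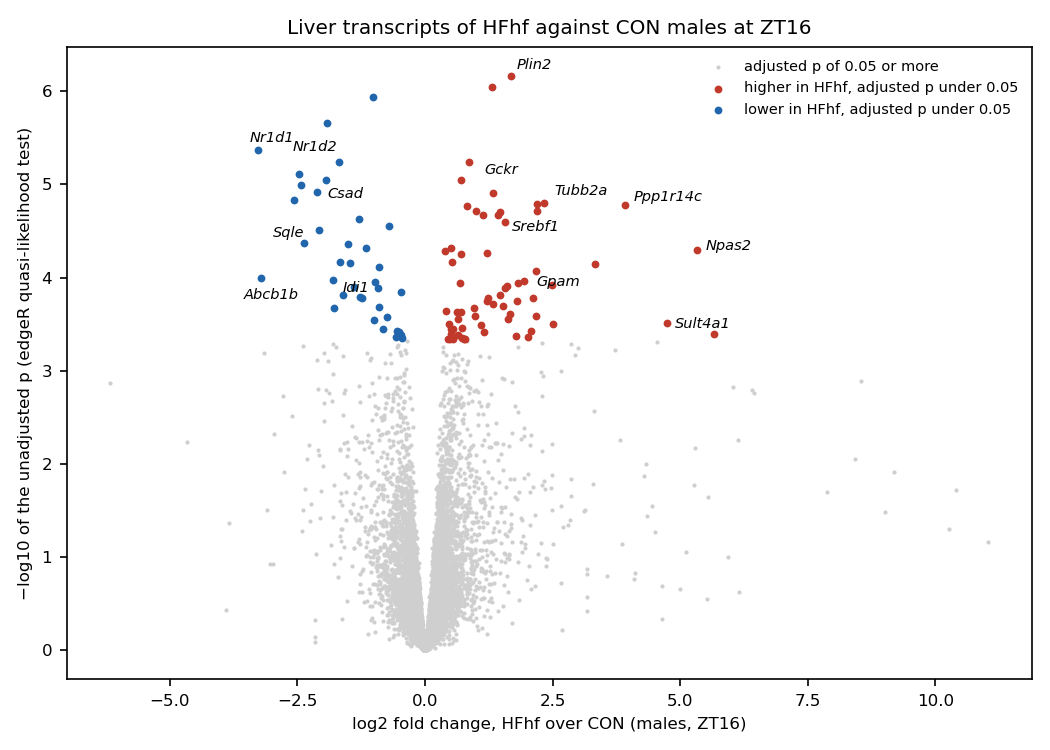
Each point is 1 of 11047 genes, with the log2 fold change of HFhf over CON in males at ZT16 on the x axis and −log10 of the unadjusted edgeR p on the y axis. The 65 rises are red and the 38 falls blue, Plin2 has the smallest p, Nr1d1 stands at the left end of the called genes, and Npas2 near the right end.

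Which genes passed the test rested on single libraries. Without CON replicate 1 only 2 genes passed, Ifit2 (higher) and Ankrd33b (lower). Without CON replicate 2 there were 13 rises and 22 falls, and without CON replicate 3 there were 36 and 31. Without HFhf replicate 2 there were 22 rises and 14 falls, without the muscle-bearing HFhf replicate 3 there were 28 and 18, and without HFhf replicate 4 there were 39 and 28. Leaving out HFhf replicate 1 gave 80 and 35. All of the 103 genes that were tested in each of these fits kept their sign, which is a description only, since the fits share most libraries with the one that chose them.

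Of the called genes with reads in both groups, the clock genes Nr1d1 and Npas2 had the largest fitted fall and the largest fitted rise. Nr1d1, the gene of REV-ERB alpha, was 40.8, 18.8 and 23.1 CPM in the CON livers and 2.66, 1.65, 3.7 and 3.22 CPM in the HFhf livers. Every HFhf liver lay far below every CON liver, and the change was -3.27 on the log2 scale (SE 0.62, edgeR adjusted p = 0.00908). Nr1d2, the gene of REV-ERB beta, was 127, 92.6 and 98.9 CPM in CON and 42.5, 21.3, 38 and 29.5 CPM in HFhf, which is a change of -1.69 on the log2 scale (SE 0.33, adjusted p = 0.00908). Npas2, the partner of BMAL1 that these receptors repress, was 0.315, 0.132 and 0.203 CPM in CON and 3.93, 15.3, 9.66 and 7.46 CPM in HFhf. Its change of 5.34 on the log2 scale (SE 1.18, adjusted p = 0.0173) rests on 5 reads in the 3 CON libraries against 268 in the 4 HFhf libraries. The ratio of these reads per depth was 41.8, with a counting interval of 17.7 to 130 (95%, counting error only).

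Arntl moved the same way as Npas2 by its values but missed the threshold. It was 2.36, 8.82 and 9.95 CPM in CON and 31.3, 41.1, 31 and 39.9 CPM in HFhf, without overlap (log2 fold change 2.30, SE 0.61, adjusted p = 0.0519). Per3, a period gene, was 52 to 63.8 CPM in CON and 7.65 to 20.04 CPM in HFhf (-1.94, SE 0.58, adjusted p = 0.0907). Dbp, an output gene of the clock that drives daily rhythms of liver enzymes, was 58.4 to 139 CPM in CON and 11.0 to 18 CPM in HFhf (-2.60, SE 0.82, adjusted p = 0.116). Per2 had a log2 fold change of -0.33 with overlapping groups (adjusted p = 0.814). Of the 21 tested genes of the clock list 1 rose and 2 fell, the groups did not overlap for 4 members upward and 9 downward, and the median log2 fold change was -0.33 against 0.01 over all genes. Of all genes tested 0.588% rose and 0.344% fell, and 6.21% were separated upward and 5.83% downward.

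Without CON replicate 1 the adjusted p was 0.0851 for Nr1d1, 0.0874 for Nr1d2 and 0.182 for Npas2. Npas2 also missed the threshold without CON replicate 2 (0.0779), CON replicate 3 (0.0752) or HFhf replicate 2 (0.0666), and with limma voom (0.174). Without HFhf replicate 3 the counts of the clock list stayed at 1 rise and 2 falls. Of 16 alternative fits, described below, Arntl passed in 5, Per3 in 4 and Dbp in 3. With DESeq2 their adjusted p was 0.00618, 0.0512 and 0.0428, and with edgeR without CON replicate 1 it was 0.349, 0.334 and 0.525.

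**Figure D2:**
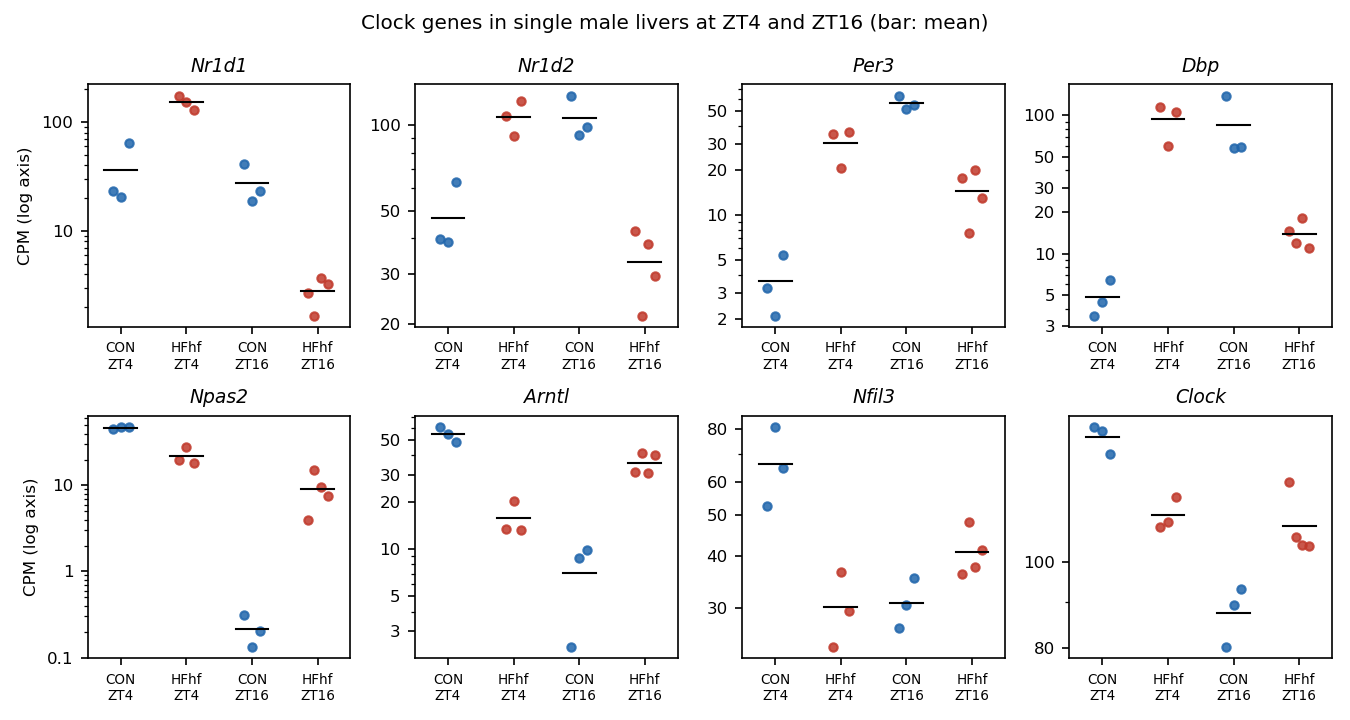
Each point is 1 male liver, with the gene's CPM on a log axis, CON in blue and HFhf in red at ZT4 and at ZT16, and a bar at the group mean, for 8 clock genes. At ZT16 Nr1d1, Nr1d2, Per3 and Dbp are lower and Npas2 and Arntl higher in every HFhf liver than in every CON liver, and at ZT4 the order of the same 6 genes is turned round.

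The clock genes stood in the opposite order in the morning. At ZT4, in the light phase, 3 other CON and 3 other HFhf males were measured. Nr1d1 was there 23.2, 20.3 and 64.5 CPM in CON and 176, 153 and 129 CPM in HFhf. The HFhf effect at ZT16 minus that at ZT4 was -5.35 on the log2 scale (SE 0.82, edgeR adjusted p = 0.000969). Npas2 was 45.2, 47.5 and 47.7 CPM in CON at ZT4 and 19.8, 27.8 and 18.2 CPM in HFhf, and its difference of effects was 6.44 (SE 1.33, adjusted p = 0.00949). Dbp was 3.56, 4.49 and 6.47 CPM in CON at ZT4 and 115, 60.2 and 106 CPM in HFhf, and its difference was -6.87 (SE 1.31, adjusted p = 0.00342). At ZT4 the groups did not overlap for any of these 3 genes, and each stood the other way round from ZT16.

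Dbp in CON lay between 3.56 and 6.47 CPM at ZT4 and between 58.4 and 139 CPM at ZT16, and in HFhf between 60.2 and 115 CPM at ZT4 and between 11.0 and 18 CPM at ZT16. Its levels in HFhf were thus high at the time when those in CON were low, and low when those in CON were high. Arntl in CON lay between 48.6 and 60.6 CPM at ZT4 and between 2.36 and 9.95 CPM at ZT16, and in HFhf between 13.3 and 20.5 CPM at ZT4 and between 31 and 41.1 CPM at ZT16. The difference of effects of Arntl was 4.10 (adjusted p = 0.00886), that of Nr1d2 -2.87 (adjusted p = 0.00185), that of Per3 -5.03 (adjusted p = 0.00269) and that of Nfil3, a repressor of Dbp targets, 1.53 (adjusted p = 0.0125). The effect thus differed between the times for 7 of the 21 clock genes, and 19 of the 21 had opposite signs at the 2 times, against 48.2% of all genes tested.

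Over all genes, the HFhf effect differed between ZT16 and ZT4 for 50 genes (30 higher and 20 lower at ZT16, 0.453% of those tested, 972 at an unadjusted p under 0.05). All 50 had opposite signs at the 2 times, a pattern favoured by their choice for a large difference between the times. Of these, 23 were also among the 103 genes called at ZT16 and 12 were called at ZT4, where 0.688% of the genes tested were. Besides the clock list they included Ppard (the nuclear receptor PPAR delta), which was 5.67, 10.3 and 6.91 CPM in CON at ZT16 and 14.5, 32.4, 23.3 and 24.6 CPM in HFhf. At ZT4 Ppard was 25.3 to 46.4 CPM in CON and 8.77 to 13.3 CPM in HFhf (difference of effects 3.23, adjusted p = 0.00233). The tubulin gene Tubb2a (3.64, adjusted p = 0.00266), the membrane protein gene Tmem252 (2.86, adjusted p = 0.0142) and the sialyltransferase gene St8sia1 (4.22, adjusted p = 0.0231) differed the same way. Hsd17b2, which inactivates sex steroids (-4.58, adjusted p = 0.00771), and the kinesin gene Kif26b (-2.42, adjusted p = 0.0345) differed the other way.

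Only the 7 libraries of males at ZT16 were left out in turn, and none of the ZT4 libraries was. Without CON replicate 1 of ZT16 the differences of 25 genes passed, and without HFhf replicate 2 those of 36. Those of Arntl (0.0569), Nfil3 (0.0657), Hsd17b2 (0.0855) and Tmem252 (0.0719) then missed the threshold without CON replicate 1, while those of Nr1d1, Nr1d2, Per3, Dbp, Npas2, Ppard and Tubb2a passed without each of the 7 libraries in turn, though with limma voom that of Npas2 missed it (0.103). With only the groups compared in the fit that of St8sia1 missed it (0.152). St8sia1 and Kif26b missed it without CON replicate 1 (0.121 and 0.109), HFhf replicate 2 (0.0579 and 0.0879) or HFhf replicate 3 (0.0704 and 0.0879), St8sia1 also without CON replicate 3 (0.0714), and Kif26b also without CON replicate 2 (0.0777) or HFhf replicate 4 (0.064). For the other 80 of the 103 genes called at ZT16 a difference from ZT4 was not detected.

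Transcripts of fatty acid and triglyceride synthesis were mostly higher in HFhf. Srebf1, the gene of SREBP-1, was 388, 559 and 542 CPM in CON and 1462, 1096, 1519 and 1394 CPM in HFhf. Every HFhf liver lay above every CON liver, by 1.46 on the log2 scale (SE 0.31, edgeR adjusted p = 0.0102). Gpam, which makes the first step of triglyceride assembly, was 49.9, 178 and 180.4 CPM in CON and 225, 625, 901 and 343 CPM in HFhf (1.94, SE 0.45, adjusted p = 0.0271). Me1, the malic enzyme that supplies NADPH for fat synthesis, was 31.3, 39.6 and 75.8 CPM in CON and 44.2, 310.2, 303 and 139 CPM in HFhf (2.02, SE 0.53, adjusted p = 0.049). HFhf replicate 1 lay within the CON range for Me1, and for Gpam it was the lowest HFhf liver.

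Fasn, the fatty acid synthase, was 1109.5, 3702 and 2818 CPM in CON and 5617, 9362, 12536 and 8441 CPM in HFhf, without overlap (1.82, SE 0.49, adjusted p = 0.0536). Pnpla3, a lipid droplet acyltransferase and lipase induced by SREBP-1c, was 5.2, 40.1 and 87.4 CPM in CON and 77.9, 1466, 2227 and 401 CPM in HFhf (4.54, SE 1.20, adjusted p = 0.0514). Its values spread more than 10-fold within each group. Fasn passed in 4 of the 16 alternative fits and Pnpla3 in 5, with a DESeq2 adjusted p of 0.00407 and 0.00068. Without CON replicate 1 they had 0.387 and 0.33 by edgeR. The desaturase Scd1 (1.24, adjusted p = 0.243), Scd2 (1.90, adjusted p = 0.392), the lipogenic cofactor Thrsp (0.78, adjusted p = 0.261) and the acetyl-CoA carboxylase Acaca (0.72, adjusted p = 0.323) did not pass. Mlxipl, the gene of the sugar-sensing factor ChREBP, had 0.18 (adjusted p = 0.802).

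Of the 30 tested genes of this list 3 rose and 0 fell, 25 had a positive log2 fold change, 9 were separated upward and none downward, and the median was 0.62. Of all genes tested 0.588% rose, 51.1% had a positive log2 fold change and 6.21% were separated upward. CON replicate 1 was the lowest of the 3 CON livers for Srebf1, Gpam, Me1, Fasn, Pnpla3 and Scd1. Without it none of the 30 passed (Srebf1 0.195, Gpam 0.289, Me1 0.334) and the median was 0.48. Without HFhf replicate 3 Srebf1 alone passed (0.0307), and Gpam (0.121) and Me1 (0.17) did not. Without HFhf replicate 1 there were 7 rises. Srebf1 alone passed without CON replicate 2 or HFhf replicate 2, where Gpam had 0.0544 and 0.0708 and Me1 had 0.188 and 0.166. Me1 also missed the threshold without CON replicate 3 (0.0516) or HFhf replicate 4 (0.0527). With only the groups compared in the fit Gpam had 0.36 and Me1 0.396, and Me1 also missed the threshold with DESeq2 size factors (0.0505), limma voom (0.0612), no filter on low counts (0.0715), no IUGR-RC libraries (0.0587) or a term for the range of title numbers (0.0676).

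Transcripts of cholesterol synthesis were mostly lower. Sqle, the squalene epoxidase, was 52.3, 29.5 and 28.2 CPM in CON and 4.04, 8.25, 18.2 and 3.36 CPM in HFhf, which is -2.09 on the log2 scale (SE 0.45, edgeR adjusted p = 0.0127). HFhf replicate 3 was the highest HFhf liver and still lay below every CON liver. Idi1, the isopentenyl diphosphate isomerase, was 66.6, 23.6 and 31.2 CPM in CON and 13.2, 12.3, 11.8 and 8.34 CPM in HFhf (-1.81, SE 0.42, adjusted p = 0.0269). The sterol methyl oxidase gene Msmo1 was 113 to 165 CPM in CON and 26.3 to 59.8 CPM in HFhf (-1.66, adjusted p = 0.0202), and the sterol reductase gene Hsd17b7 was 7.63 to 11.0 CPM in CON and 2.92 to 4.53 CPM in HFhf (-1.40, adjusted p = 0.0273).

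Of the 27 tested genes of the cholesterol list 5 fell and 0 rose, 22 had a negative log2 fold change, 10 were separated downward and none upward, and the median was -0.41, where 0.344% of all genes tested fell and 5.83% were separated downward. Cyp51, the lanosterol demethylase (-1.05, adjusted p = 0.0599), and the HMG-CoA synthase Hmgcs1 (adjusted p = 0.082) were separated and missed the threshold. Cyp51 passed in 4 of the 16 alternative fits and Hmgcs1 in 3, with a DESeq2 adjusted p of 0.0213 and 0.0336. Without CON replicate 1 they had 0.42 and 0.517 by edgeR. Insig2, which retains the SREBPs in the endoplasmic reticulum when sterol is plentiful, rose from 41.6, 63.4 and 73.3 CPM to 179.7, 135, 100.1 and 137 CPM (1.21, SE 0.30, adjusted p = 0.0326). Its effect differed from that at ZT4 by 1.83 (adjusted p = 0.0253), and it was named here after its values were seen.

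None of the 27 passed without CON replicate 1, where the adjusted p was 0.206 for Sqle and Msmo1 and 0.366 for Idi1. With only the groups compared in the fit Sqle (0.273), Msmo1 (0.0966), Idi1 (0.118) and Insig2 (0.081) missed the threshold, as did Idi1 with limma voom (0.0538) and Insig2 without a filter on low counts (0.0525). Of the list, 3 genes fell without CON replicate 2 or CON replicate 3, 2 without HFhf replicate 1 or HFhf replicate 2 and 1 without HFhf replicate 4. Without HFhf replicate 3 the count was 5, with a median of -0.48, and Idi1 (0.0644) was not among them. Of the 7 fits that leave out a library, Sqle missed the threshold in the one without CON replicate 1. Msmo1 missed it also without CON replicate 2 (0.0538), HFhf replicate 1 (0.0552) or HFhf replicate 4 (0.0543), and Idi1 also without HFhf replicate 2 (0.0702) or 4 (0.0591). Hsd17b7 missed it without CON replicate 1 (0.213) or 3 (0.0754), or HFhf replicate 1 (0.0513), 2 (0.0726) or 4 (0.0591). Insig2 missed the threshold without CON replicate 1 (0.316), CON replicate 2 (0.0968), HFhf replicate 1 (0.0753), HFhf replicate 2 (0.0708) or HFhf replicate 4 (0.0543), and its difference from ZT4 without CON replicate 1 (0.129), CON replicate 2 (0.0544) or HFhf replicate 1 (0.062).

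**Figure D3:**
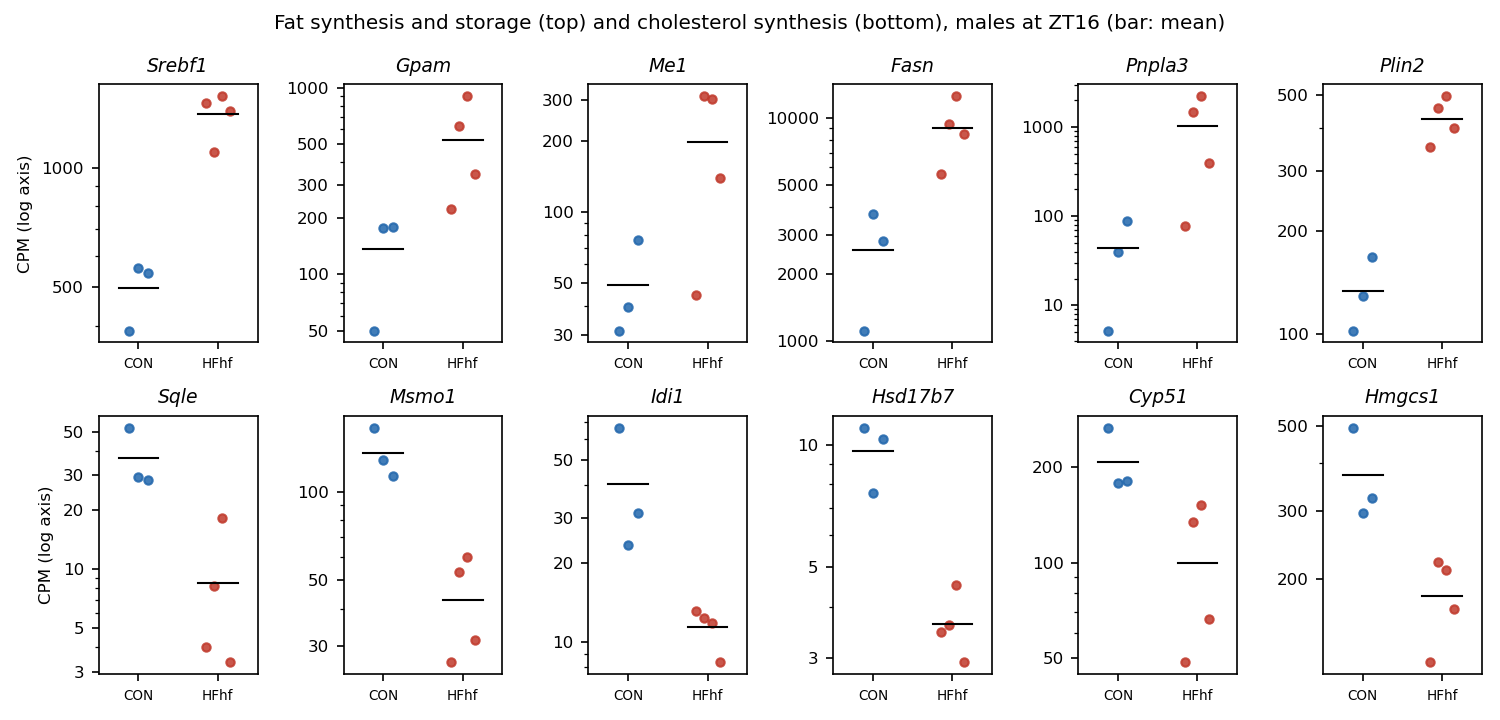
Each point is 1 male liver at ZT16, with CPM on a log axis, CON in blue, HFhf in red and a bar at the group mean. In the upper panels Srebf1, Gpam, Fasn and Plin2 are higher in every HFhf liver and Me1 and Pnpla3 overlap, and in the lower panels all 6 cholesterol genes are lower in every HFhf liver than in every CON liver.

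Plin2 had the smallest p of all genes. It was 102, 129.9 and 168 CPM in CON and 353, 458, 497 and 401 CPM in HFhf, that is, 1.68 higher on the log2 scale (SE 0.29, edgeR adjusted p = 0.00427). All 4 HFhf livers were more than 2-fold above the highest CON liver. It was the only 1 of 15 tested genes of lipid droplets and lipolysis that passed (0.932% of all genes tested did), and Cidec, a droplet fusion protein gene, had 0.05 (adjusted p = 0.944). Without HFhf replicate 3 its adjusted p was 0.0091, and without CON replicate 1 it was 0.0851.

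Genes of fat burning gave 1 rise and 1 fall among 56, where 0.588% of all genes tested rose and 0.344% fell. Acaa1b, the peroxisomal thiolase, was 37, 51.3 and 50.6 CPM in CON and 87.4, 88.1, 122 and 130.1 CPM in HFhf (1.20, SE 0.27, edgeR adjusted p = 0.0176). Cyp4a8, of a family of fatty acid hydroxylases, was 24.9, 27.2 and 29 CPM in CON and 2.77, 10.8, 1.67 and 4.97 CPM in HFhf (-2.46, SE 0.48, adjusted p = 0.00996). Of the 56 genes 48 had a positive log2 fold change, against 51.1% of all genes tested, with a median of 0.32. The groups were separated upward for 14 of them and downward for 1, against 6.21% and 5.83% of all genes tested. The known PPAR alpha targets Acot2 (1.07, adjusted p = 0.058), Vnn1 (0.78, adjusted p = 0.338), Pdk4 (0.69, adjusted p = 0.54), Fgf21 (2.01, adjusted p = 0.248) and Cpt1a (-0.40, adjusted p = 0.707) did not pass. Fgf21, a hormone of the fasting and overfed liver, was nonetheless 1.42 to 2.44 CPM in CON and 4.62 to 10.9 CPM in HFhf, without overlap. Acot2 passed in 6 of the 16 alternative fits (DESeq2 adjusted p = 0.0162) and had 0.418 by edgeR without CON replicate 1. Acaa1b missed the threshold without CON replicate 1 (0.223), CON replicate 2 (0.0538), HFhf replicate 3 (0.0546) or HFhf replicate 4 (0.0543), and Cyp4a8 without CON replicate 1 (0.0646) or with only the groups compared in the fit (0.13).

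Among 26 genes of lipid uptake and lipoproteins 1 rose, where 0.588% of all genes tested did. Mttp, which loads lipid onto apolipoprotein B for export, was 267, 323 and 325 CPM in CON and 343, 467, 493 and 441 CPM in HFhf (0.52, SE 0.12, edgeR adjusted p = 0.0171). Cd36, a fatty acid transporter, was 4.6 to 7.72 CPM in CON and 9.12, 6.75, 53.4 and 12.1 CPM in HFhf (1.76, adjusted p = 0.103), with the highest value in the muscle-bearing HFhf replicate 3, and without that library it had 0.62 (adjusted p = 0.759). Muscle and fat cells also express Cd36, and their part in this value was not tested. Mttp missed the threshold without CON replicate 1 (0.236), HFhf replicate 2 (0.0678) or HFhf replicate 3 (0.0763), or with only the groups compared in the fit (0.155).

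Sugar use gave 1 rise among 34 genes, where 0.588% of all genes tested rose. Gckr, a regulatory protein of liver sugar use that responds to fructose, was 43.9, 74.9 and 93.9 CPM in CON and 143, 223, 176 and 170.2 CPM in HFhf (1.32, SE 0.27, edgeR adjusted p = 0.0102). At ZT4 Gckr was 262 to 296 CPM in CON and 207 to 248 CPM in HFhf, and the effects differed by 1.56 (adjusted p = 0.0411). The fructokinase gene Khk (0.34, adjusted p = 0.493) and the pyruvate kinase gene Pklr (0.38, adjusted p = 0.658) did not pass, though Khk was separated upward. Of 44 genes of glucose production and amino acid breakdown 1 rose, again beside 0.588% of all genes tested. It was Prodh2, which degrades hydroxyproline (0.51, adjusted p = 0.0468). Pck1, the rate-limiting enzyme of gluconeogenesis, was 1584 to 2809 CPM in CON and 432 to 1239 CPM in HFhf (-1.27, adjusted p = 0.258), and G6pc had 0.53 (adjusted p = 0.798).

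Without CON replicate 1 Gckr had 0.201 and Prodh2 0.435, and the difference of Gckr from ZT4 had 0.208. Gckr at ZT16 passed without each other library, and with only the groups compared in the fit Gckr had 0.0844 and Prodh2 0.144. Without a filter on low counts Prodh2 had 0.0715 and the difference of Gckr 0.0617. Prodh2 missed the threshold without CON replicate 2 (0.132) or HFhf replicate 2, 3 or 4 (0.0891, 0.1 and 0.134), and the difference of Gckr without CON replicate 2 (0.0777) or HFhf replicate 2, 3 or 4 (0.118, 0.0614 and 0.0575).

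Of 49 genes of oxidative phosphorylation 1 rose, the succinate dehydrogenase gene Sdha, from 208, 227 and 230.4 CPM in CON to 292, 278, 287 and 304 CPM in HFhf (0.39, SE 0.09, edgeR adjusted p = 0.0174). The log2 fold changes of this list were small and mostly positive, with 48 of 49 above 0 and a median of 0.24, against 51.1% of all genes tested above 0. Of the 49, 17 were separated upward and none downward, against 6.21% and 5.83% of all genes tested, of which 0.588% rose. Sdha missed the threshold without CON replicate 1 (0.217), CON replicate 2 (0.0538) or HFhf replicate 4 (0.0543), or with only the groups compared in the fit (0.13).

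Few genes of bile acids, drug metabolism and conjugation passed the test, and 6 of 32, 4 of 46 and 9 of 63 were separated downward, against 5.83% of all genes tested. Of all genes tested 0.588% rose and 0.344% fell. Of 32 genes of bile acids and sterol transport 1 fell, the canalicular export pump gene Abcc2, from 955, 647 and 424 CPM to 333, 457, 414 and 246 CPM, with overlapping groups (-0.90, SE 0.21, edgeR adjusted p = 0.0215). Cyp7a1, the rate-limiting enzyme of bile acid synthesis, was 249.9 to 335 CPM in CON and 71.9 to 209 CPM in HFhf, separated but not past the threshold (-1.18, SE 0.59, adjusted p = 0.434), as was Cyp8b1 (-0.83, adjusted p = 0.308). None of 46 genes of drug metabolism phase 1 passed. Those with the smallest p were the carboxylesterase gene Ces1c (-1.01, adjusted p = 0.0925) and Cyp2c6v1 (0.71, adjusted p = 0.103). The male-typical Cyp2c11 had -0.14 (adjusted p = 0.947) and Cyp3a2 -0.67 (adjusted p = 0.44). Of 63 conjugation genes and NRF2 targets 1 fell, Akr7a3, an aldehyde reductase, from 92.9, 108 and 52.1 CPM to 37.3, 33.6, 21.6 and 45.5 CPM (-1.29, SE 0.27, adjusted p = 0.0107). The glutathione transferases Gsta3 (-1.52, adjusted p = 0.178) and Gstm2 (-0.59, adjusted p = 0.582) did not pass.

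Abcc2 missed the threshold without CON replicate 1 (0.435), CON replicate 2 (0.0538) or HFhf replicate 4 (0.0708). Akr7a3 missed it without CON replicate 1 (0.163), CON replicate 2 (0.0919) or HFhf replicate 3 (0.0585). With only the groups compared in the fit Abcc2 had 0.285 and Akr7a3 0.173.

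**Figure D4:**
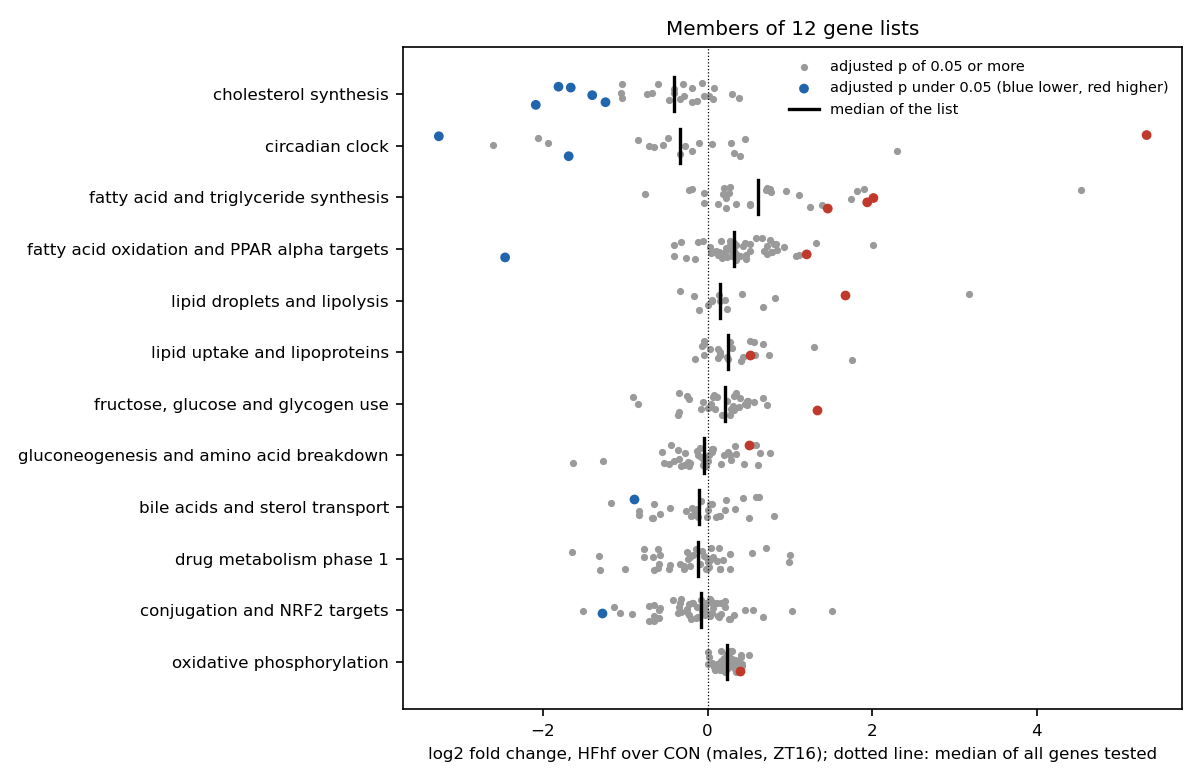
Each point is 1 tested gene of 12 lists, with its log2 fold change of HFhf over CON in males at ZT16 on the x axis, called genes in red (higher) or blue (lower), a black bar at the list's median and a dotted line at the median of all genes. Cholesterol synthesis lies mostly left of the line with a median of -0.41, fatty acid and triglyceride synthesis mostly right of it with 0.62, and oxidative phosphorylation is narrow at 0.24.

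In the remaining pathway lists few genes passed, where 0.932% of all genes tested did. Ifit2, an interferon-induced gene, rose from 22, 17.8 and 16.8 CPM to 33.9, 39.8, 32.4 and 29.7 CPM (0.85, SE 0.17, edgeR adjusted p = 0.00908). It passed without each library in turn, and the other 35 tested interferon genes did not pass. Adipor2, an adiponectin receptor, was the only 1 of 31 hormone response genes to pass, from 86.1, 104 and 95.5 CPM to 115, 150.003, 151 and 134 CPM (0.53, SE 0.12, adjusted p = 0.0202). Igfbp1, a binding protein that insulin lowers, had 0.15 (adjusted p = 0.973). No gene passed among 40 of the unfolded protein response and ATF4, 38 of the acute phase, 32 of fibrosis and matrix, 27 with a known sex bias, 36 of cell division and 22 of heat shock. The ATF4 targets Asns (1.07, adjusted p = 0.514) and Trib3 (-0.72, adjusted p = 0.739) stood on opposite sides of 0. Adipor2 missed the threshold without CON replicate 1 (0.226), CON replicate 3 (0.0697), HFhf replicate 2 (0.0726) or HFhf replicate 3 (0.0763), or with only the groups compared in the fit (0.0832).

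No gene of any marker list of the liver's other cells passed the test, where 0.932% of all genes tested did. In bulk RNA fewer cells of a type and less RNA per cell cannot be told apart. Summed over the marker lists, macrophage and Kupffer cell genes lay between 955 and 1066 CPM in CON and 985 and 1177 CPM in HFhf, endothelial genes between 689 and 744 and between 664 and 745 CPM, and stellate cell genes between 654 and 711 and between 583 and 673 CPM. The lymphocyte and neutrophil markers summed to 53.1 to 58.7 CPM in CON and 61.7 to 80.02 CPM in HFhf, without overlap, and their 10 tested genes had a median log2 fold change of 0.42. The adipocyte markers summed to 93.3 to 99.99 CPM in CON and 92.6 to 117 CPM in HFhf, highest in HFhf replicate 3, and their 8 tested genes had a median of 1.45. Without HFhf replicate 3 the median of the adipocyte markers tested was 0.12. The part of these cells in the results was not tested. Marco, a scavenger receptor of Kupffer cells, was 15.2 to 29.6 CPM in CON and 3.22 to 13.5 CPM in HFhf, without overlap (-1.57, SE 0.60, edgeR adjusted p = 0.248). Its list leaned the other way, with 15 of 23 tested macrophage and Kupffer cell genes higher and 8 lower, and a median of 0.14. Of the 23, 3 were separated upward and 1 downward, against 6.21% and 5.83% of all genes tested. Prss1, a pancreatic trypsinogen, and Ucp1, the marker of brown fat, had no read in any of the 7.

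The largest rises outside these pathways were of genes with low levels in CON. Sult4a1, a sulfotransferase, was 0, 0.789 and 2.23 CPM in CON and 3.23, 34.4, 72.2 and 13 CPM in HFhf (log2 fold change 4.73, edgeR adjusted p = 0.0442). Ppp1r14c, a phosphatase inhibitor, had 4 reads in CON and 82 in HFhf, a ratio per depth of 16 with a counting interval of 6.01 to 60.004 (adjusted p = 0.0102). Rprm, a cell cycle inhibitor, had 11 and 146 reads, a ratio of 10.3 with an interval of 5.61 to 21.2 (adjusted p = 0.0202). Slc19a3, a thiamine transporter, had no read in CON and 18 in HFhf (adjusted p = 0.049). Its ratio per depth was 4.67 when CON is set to a floor of 3 reads over the group. The lower bound of its counting interval (95%) was 3.43. Cyp17a1, a steroid hydroxylase, was 3.94, 6.05 and 6.8 CPM in CON and 13, 21.8, 68.3 and 25.4 CPM in HFhf (adjusted p = 0.0442), highest in HFhf replicate 3.

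Of the other large rises, Tubb2a, Acpp, Tmem252 and Foxp2 spread less in fold across the HFhf livers than Aldh1b1 and Tspo. Tubb2a, a tubulin gene, was 2.83, 7.24 and 5.79 CPM in CON and 21.4, 35.3, 24.9 and 27.1 CPM in HFhf (2.33, edgeR adjusted p = 0.0102). Acpp, an acid phosphatase gene, was 0.787 to 1.93 CPM in CON and 3.81 to 9.0 CPM in HFhf (2.19, adjusted p = 0.0102), and Tmem252 was 1.73 to 2.94 and 6.23 to 13.7 CPM (2.19, adjusted p = 0.0102). Foxp2, a transcription factor gene, was 0.315 to 4.34 and 7.5 to 13.6 CPM (2.07, adjusted p = 0.048). Aldh1b1, a mitochondrial aldehyde dehydrogenase, was 5.51 to 11.2 and 12.7 to 50.1 CPM (1.81, adjusted p = 0.0271), and Tspo, a cholesterol-binding protein of the outer mitochondrial membrane, 0.945 to 1.18 and 2.08 to 9.66 CPM (2.18, adjusted p = 0.0227).

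Among the largest falls, Csad, which makes the precursor of taurine, was 389.5, 399 and 260.2 CPM in CON and 95.4, 92.0, 47.7 and 88.8 CPM in HFhf (-2.11, SE 0.42, edgeR adjusted p = 0.0102). Abcb1b, a P-glycoprotein drug exporter, was 312, 44.6 and 55.5 CPM in CON and 5.54, 7.65, 10.5 and 35.7 CPM in HFhf (-3.22, adjusted p = 0.0266). Its groups did not overlap, but its mean in CON rests on replicate 1. Ankrd33b, an ankyrin repeat gene, was 5.35 to 10.5 CPM in CON and 0.835 to 2.34 CPM in HFhf (-2.44, adjusted p = 0.0102). The laminin gene Lama5 (-2.38, adjusted p = 0.0167), the kinesin gene Kif26b (-1.95, adjusted p = 0.00996), the cell junction gene Ppl (-1.91, adjusted p = 0.0061) and the entry listed as Mir292 (-1.79, adjusted p = 0.0355) also fell, and the last counts reads at that symbol and not the mature microRNA.

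Without CON replicate 1 the adjusted p of these genes ranged from 0.0851 for Csad, Kif26b and Mir292 to 0.514 for Abcb1b, with Ankrd33b alone still past the threshold (0.0355). Without HFhf replicate 3 Sult4a1 (0.178), Cyp17a1 (0.234), Foxp2 (0.0639), Aldh1b1 (0.147), Tspo (0.174), Abcb1b (0.0822), Lama5 (0.0615) and Mir292 (0.0933) missed it. Without CON replicate 2 it was missed by Ppp1r14c (0.0755), Rprm (0.129), Acpp and Tmem252 (0.0538 each), Sult4a1, Cyp17a1, Foxp2, Aldh1b1, Tspo and Mir292. Rprm also missed it without CON replicate 3 (0.0752), as did Sult4a1, Cyp17a1, Foxp2, Aldh1b1, Tspo and Mir292, and without HFhf replicate 2 those 6 and Abcb1b (0.0891) missed it. Slc19a3 missed it without each library other than HFhf replicates 1 and 4, with adjusted p from 0.0615 to 0.226, and was too low to be tested without HFhf replicate 4. Without HFhf replicate 1 Abcb1b (0.0623), Foxp2 (0.0705) and Mir292 (0.0768) missed it, and without HFhf replicate 4 Cyp17a1 (0.0526), Foxp2 (0.095) and Mir292 (0.0613). With only the groups compared in the fit Sult4a1, Cyp17a1, Tspo, Foxp2, Aldh1b1, Abcb1b and Lama5 missed it (0.158 to 0.317), with limma voom Lama5 (0.0785), Aldh1b1 (0.0808), Tspo (0.0712) and Sult4a1 (0.321), without a filter on low counts Foxp2 (0.071), Cyp17a1 (0.0614), Sult4a1 (0.0599) and Slc19a3 (0.056), and with the term for title numbers Mir292 (0.0605).

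The same 103 genes were read in the other strata of the series, which share no library with this comparison. Of the 65 rises 36 had the same sign in males at ZT4, 61 in females at ZT16 and 38 in females at ZT4. Of the 38 falls 27, 32 and 28 had the same sign. Over all genes the share with the same sign was 51.8%, 61.2% and 57.5%. The median log2 fold change of the 65 rises was 1.24 in males at ZT16, 0.07 in males at ZT4 and 0.47 in females at ZT16, and that of the 38 falls was -1.28, -0.52 and -0.40. The genes were chosen by their change in males at ZT16, which raises the size of the medians there. Smaller medians in the other strata therefore do not show by themselves a weaker response. No gene's HFhf effect was shown by edgeR to differ between males and females at ZT16 (0 of 11047 at an adjusted p under 0.05, 497 at an unadjusted p under 0.05, and 3 by DESeq2: RGD1560242, Slc22a8 and Cyp2a2). At this number of livers that does not show that the sexes responded alike.

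Sqle and Plin2 were called in females at ZT16 too, while Nr1d1 and Npas2 were not. Sqle was 64.1, 117 and 116 CPM in CON females at ZT16 and 11.3, 12.8, 15.5 and 29.9 CPM in HFhf females (log2 fold change -2.52, edgeR adjusted p = 0.000368), and in males at ZT4 it had -1.89 (adjusted p = 0.0461). Plin2 was 105 to 122 CPM in CON females and 249 to 376 CPM in HFhf females at ZT16 (1.46, adjusted p = 0.00221), whereas in males at ZT4 it had 0.30 (adjusted p = 0.82). That difference of Plin2 between the times did not pass (1.38, adjusted p = 0.141). Nr1d1 in females at ZT16 was 23.2 to 35 CPM in CON and 3.44 to 12.4 CPM in HFhf (-1.80, adjusted p = 0.0823), and all 21 clock genes had the same sign in the females at ZT16 as in the males. Npas2 had 0.77 there (adjusted p = 0.926), with 0.316 to 1.41 CPM in CON females and 0.875 to 1.98 CPM in HFhf females.

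**Figure D5:**
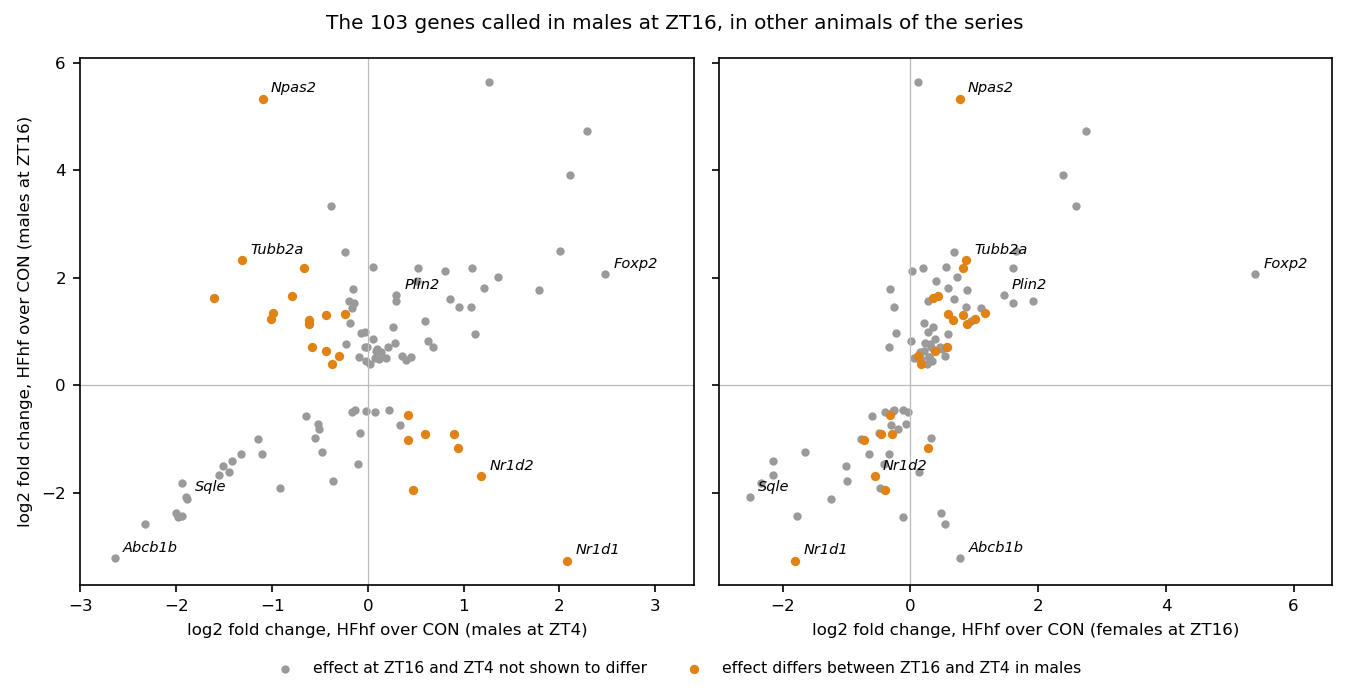
Each point is 1 of the 103 genes called in males at ZT16, with its log2 fold change there on the y axis and that in males at ZT4 (left) or females at ZT16 (right) on the x axis. Orange points are the 23 genes whose effect differed between ZT16 and ZT4 in males, among them Nr1d1, Nr1d2, Npas2 and Tubb2a, which lie across 0 on the left, while 61 of the 65 rises lie right of 0 on the right.

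A further group of 4 males at ZT16 had the HFhf diet after growth restriction in the womb (IUGR-HFhf), and its comparison uses the same 3 CON livers, so the values are only set side by side. Its own comparison with CON had 203 rises and 163 falls (3.31% of the genes tested). Srebf1 was 1358, 1701, 1531 and 1174 CPM there and Plin2 272, 442, 382 and 391 CPM, within or near the range of the HFhf livers. Nr1d1 was 6.32, 3.46, 14.1 and 8.67 CPM, Npas2 0.659, 9.52, 0.866 and 3.04 CPM, and Arntl 16.6, 29.8, 16.6 and 19.9 CPM. For these 3 clock genes most IUGR-HFhf livers lay between the CON and the HFhf livers.

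In the authors' deposited table for this comparison 119 genes are higher and 84 lower at an adjusted p under 0.05, and 64 and 44 of these change at least 2-fold. Of those 203 genes 101 were called here with the same sign, which is 49.8% of the 203 in the authors' deposited table and 98.1% of the 103 called here.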

How the data were processed

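Stranded libraries were made from liver RNA with a ribosomal RNA removal kit and sequenced on an Illumina HiSeq, per the labels' protocols. FastQC, STAR with featureCounts of Subread, and DESeq2 are listed by the submitters' processing notes, without versions or settings, as is the build rn6, and the strand setting of the counting is not given in the sources used here. The deposited table holds raw counts by the authors, per gene symbol, for 17337 genes. The header lacks a name for the gene column, so each name belongs to the value column that follows it in order. Per the file headers, the authors' own table for this comparison gives a mean signal of size-factor scaled counts, log2 fold changes, a Wald score, p-values and adjusted p-values, and a direction call. It was used only to compare calls.

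One edgeR 4.0.16 fit (R 4.3.3) took all 56 libraries with a mean for each of 16 groups of sex, time and diet, TMM scaling, filterByExpr (11047 genes left) and robust quasi-likelihood F tests (residual degrees of freedom, 40). Tests were two-sided, adjusted by Benjamini-Hochberg over all genes, with a threshold of 0.05. The HFhf effect was also set against that in males at ZT4 and in females at ZT16 by contrasts of this fit. SEs are the log2 fold change over the root of F. Reads give 7 libraries of 5.55 M to 9.05 M counts, and the median gene had a 95% interval of 0.39 to either side on the log2 scale. Pairs of libraries within a group differed by more than counting error (chi-square per degree of freedom 10.1 to 34.1, where counting alone gives 1).

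The comparison, the 30 gene lists (901 of 949 entries matched, 830 tested) and the genes named were chosen with earlier results of these data known, and lists are described by counts and medians. The genes named were the 12 largest rises and 12 largest falls among called genes with a symbol, at least 2 CPM in the higher group and no overlap, leaving out muscle genes. To these came up to 3 called genes of each list, or the 2 with the smallest p, a fixed set of liver genes and the 5 largest differences in each direction. Marker lists are mostly given by their sums, and some genes under the rule are not reported here. Hsd17b7, Insig2, Cyp51, Nfil3, Slc19a3 and the 3 genes called by DESeq2 between the sexes fall outside the rule and were named after their values were seen. Alternatives used other scalings, filters, DESeq2 1.42.0, limma 3.58.1 (voom with library weights), fewer groups, a term for the range of title numbers, and each of the 7 libraries left out.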

Additional observations from a re-analysis of the deposited data

Results flagged for a closer look

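In the 4 HFhf livers a single value stood far from the other 3 in 11 of 93 groups of values examined (named genes and marker sums). The nominal rate of the outlier test would give 4.65. The genes are related and were named with earlier results of these data known, so this rate is no chance expectation for them. Of these 11, 9 were in HFhf replicate 3. The skeletal muscle markers summed to 991.65 CPM there, with Acta1 at 124.5 CPM and Ckm at 64.3 CPM, and Adipoq was 2.74 CPM. High in the same liver were Cd36 (53.4 CPM) and Scd2 (211.8 CPM). Low in it were Ces1c (347.8 CPM), Csad (47.7 CPM) and the summed endothelial markers (663.5 CPM). Abcb1b stood out in HFhf replicate 4, at 35.7 CPM, as did Slc19a3, at 1.17 CPM. Whether the muscle RNA bears on the genes of liver metabolism in this list was not tested.

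The HFhf effect in males differed between ZT16 and ZT4, by the test of the difference itself, for these named genes. On the log2 scale the effect at ZT16 minus that at ZT4 was -5.35 for Nr1d1, -2.87 for Nr1d2, -5.03 for Per3, -6.87 for Dbp, 4.10 for Arntl, 6.44 for Npas2 and 1.53 for Nfil3, all of the clock. It was 3.23 for Ppard, 3.64 for Tubb2a, -4.58 for Hsd17b2, 2.86 for Tmem252, 4.22 for St8sia1, 1.83 for Insig2, -2.42 for Kif26b and 1.56 for Gckr.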

How the results depend on the processing

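The 65 rises and 38 falls stayed within 1.5 times under the other scalings and a floor of 5 CPM. They became 35 rises without a filter on low counts, 123 and 86 with DESeq2, 130 and 102 with limma voom, 116 and 84 in the 41 libraries without IUGR-RC, 109 and 81 with a term for the range of title numbers, 34 rises (37 falls) with only the groups compared, and 38 and 24 with a change of at least 2-fold. Leaving out each library in turn gave 1 to 80 rises and 1 to 35 falls. The 50 differences from ZT4 became 87 with DESeq2, 156 with voom, 116 without IUGR-RC, 88 with only the groups compared and 115 with the title term, and 25 to 51 with a library left out. Those from females were 0, but 3 with DESeq2, 1 with the title term and 0 to 1 with a library left out. Only the 7 libraries of males at ZT16 were left out in turn, and no ZT4 or female library was. The causes were not tested. All 103 called genes that were tested kept their sign in each alternative, and all 50 differences did too. This is a description only, since the same libraries chose these genes. With only the groups compared 37 of the 100 that were tested still passed, with DESeq2 100 of 101. Some genes that were not called changed sign with a library left out, where Cidec ranged from -0.034 (without HFhf replicate 4) to 0.12, Cyp2c11 from -0.31 to 0.10 (without HFhf replicate 3), Adipoq from 0 (without HFhf replicate 3) to 6.37, and Igfbp1 from -0.45 (without HFhf replicate 4) to 1.49 (without CON replicate 3), with -0.39 without CON replicate 1 and -0.043 without CON replicate 2. No paired analysis was possible because the labels give no replicate numbers that could pair CON with HFhf livers. With 3 and 4 livers the median gene had a 95% interval of 0.39 to either side on the log2 scale, which limits the changes that could be detected.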
